A study of Mus musculus with 2 samples.

Results

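Il4-expressing cells were studied among innate lymphoid cells (ILCs) of mouse skin, lymphocytes that carry no rearranged antigen receptor. The mice were of strain C57/BL6 and were taken at postnatal day 1 or postnatal day 14, with 1 library for each age. Cells from collagenase-digested skin had been sorted as CD45+ Lin- Thy1.2+ and captured on the 10x Genomics platform (a Chromium kit that reads the 5' ends of transcripts). UMI counts, where a UMI is a tag that lets each RNA molecule be counted once, were deposited for 18786 genes in 5246 cells, whose names end in 1 of 2 suffixes, called set 1 and set 2 here. Neither suffix could be matched to an age, so all cells count as a single sample, the ages are not set against each other and there is no test between groups of cells. All intervals given are 95% intervals and cover counting error only.

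A cell was counted as Il4-expressing when it belonged to set 1, held at most 10% mitochondrial UMIs, had fewer than 3 UMIs summed over the cycling genes Mki67, Top2a and Birc5, and held at least 2 UMIs of Il4. The rule found 73 cells of the 990 non-cycling cells kept in set 1 and of 5246 cells in all. They were compared with the 804 cells of set 1 that passed the same limits and had no Il4 UMI. The other 113 non-cycling cells of set 1 held exactly 1 Il4 UMI. The cells were chosen by their Il4 and cycling-gene counts, so the Il4 level itself is given as a description.

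Interleukin-4 is a cytokine of type 2 immunity that acts through the receptor chain Il4ra and the transcription factor Stat6. T helper 2 cells, basophils, mast cells and eosinophils are its best known sources, whereas group 2 ILCs (ILC2s) are known mainly for interleukin-5 and interleukin-13. In T helper 2 cells and ILC2s the transcription factor Gata3 acts on a locus that holds Il4, Il13, Rad50 and Il5 side by side, and NFAT factors act on the Il4 promoter after calcium signals.

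In the GRCm38 build of the mouse genome (GENCODE annotation) Il4 lies on chromosome 11 at chr11:53602982-53618669, on the minus strand. Il13 follows at chr11:53631324-53634702 on the same strand, 12654 bases beyond the end of Il4. Rad50 lies at chr11:53649519-53707319 on the minus strand, and Il5 at chr11:53720794-53725106 on the plus strand. The 250 bases before the RefSeq start sites of Il4 (chr11:53618666-53618915) and Il13 (chr11:53634703-53634952) are shown because RNA of these 2 genes was found in the same cells. They are written 5′ to 3′ on the minus strand of GRCm38.p6, with the GATA motifs (AGATAA with its variant AGATAG, and TGATAA with its variant TGATAG) and the NFAT core GGAAAA in capitals on either strand.
Il4: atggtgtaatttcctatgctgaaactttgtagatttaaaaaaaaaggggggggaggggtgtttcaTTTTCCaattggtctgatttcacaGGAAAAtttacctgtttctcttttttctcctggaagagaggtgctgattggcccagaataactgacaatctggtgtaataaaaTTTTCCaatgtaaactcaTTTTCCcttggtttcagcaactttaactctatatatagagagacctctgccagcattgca
Il13: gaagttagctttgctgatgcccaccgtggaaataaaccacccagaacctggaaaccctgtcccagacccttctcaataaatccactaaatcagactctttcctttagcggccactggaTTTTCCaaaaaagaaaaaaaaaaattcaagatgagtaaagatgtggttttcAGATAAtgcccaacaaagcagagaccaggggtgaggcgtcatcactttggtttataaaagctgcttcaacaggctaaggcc
The Il4 window holds 4 NFAT cores and 0 GATA motifs, and the Il13 window 1 of each. The motifs do not overlap here. Of 32851 RefSeq windows of the same length, 20.4% held an NFAT core and 26.5% a GATA motif. RefSeq gives Il4 a second start site, whose 250 bases (chr11:53617339-53617588) hold 0 NFAT cores and 1 GATA motif. These matches are letters in a window and not measured binding sites.

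Il4 RNA was spread very unevenly over the cells. The 990 non-cycling cells of set 1 held 667 Il4 UMIs, and the 73 Il4-expressing cells held 83.1% of them. Within the 73, the lowest count was 2, the median 3 and the highest 154 UMIs. The highest cell held 154 of 12367 UMIs, and the next cells held 54 of 5287, 54 of 8077, 16 of 4596 and 16 of 7714. The first 3 of these cells thus carried 39.3% of the Il4 UMIs of set 1, and 36 of the 73 cells sat at the limit of 2 UMIs. Summed over the Il4-expressing cells, Il4 stood at 719.9 CPM (UMIs per 1000000 UMIs).

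**Figure D1:**
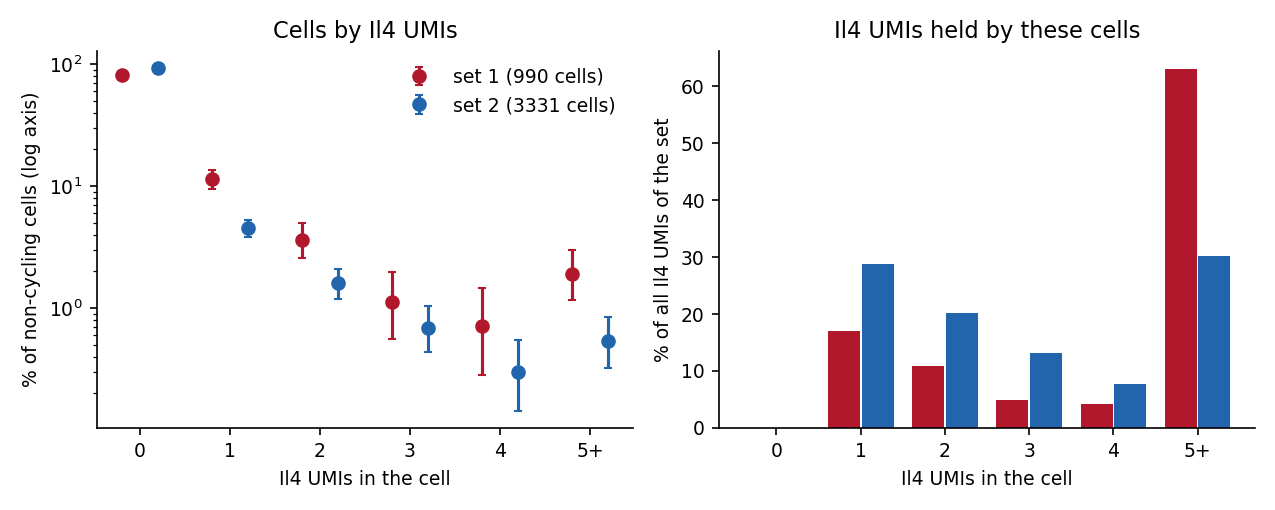
Left, the percentage of non-cycling cells (log axis) at each number of Il4 UMIs, with exact 95% binomial intervals, in set 1 (990 cells, red) and set 2 (3331 cells, blue). Right, the percentage of each set's Il4 UMIs held by those cells: cells with 5 or more UMIs held 63.1% in set 1 and 30.2% in set 2.

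Il4-expressing cells made up 7.37% of the non-cycling cells of set 1 (5.82 to 9.18%, exact Clopper-Pearson). The same rule in set 2 gave 104 of 3331 cells, 3.12% (2.56 to 3.77%), with a highest cell of 21 UMIs. Set 1 was sequenced to a median of 10683 UMIs per kept cell and set 2 to 4849. After every cell was thinned to 5000 UMIs, 4.16% of set 1 (2.95 to 5.69%, 101 shallower cells left out) and 2.79% of set 2 (2.01 to 3.76%, 1861 left out) held at least 2 Il4 UMIs, and these intervals overlap. Within set 1, the share was 2.82%, 9.72%, 5.67% and 11.3% from the lowest to the highest quartile of UMIs per cell. A cell with few UMIs was therefore less often above the limit, and the third quartile did not follow that order.

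Il4 UMIs were also counted in cells that carry RNA of other ILC kinds. Of 152 cells of set 1 with at least 5 UMIs of Tyrobp and Fcer1g together, adaptor genes of natural killer and type 3 cells, 1 had an Il4 UMI (0.658%, 0.0167 to 3.61%) at a median of 9301 UMIs per cell. None of the 152 had 2, which allows a share of up to 1.97% when 3 counts are taken as the limit of a count of 0. Of 70 cells with at least 2 UMIs of Il22, a cytokine of group 3 ILCs, 6 had an Il4 UMI (8.57%, 3.21 to 17.7%) and 2 had at least 2 (2.86%), at a median of 9881.5 UMIs. Over all 1441 kept cells of set 1, 20.3% had an Il4 UMI and 8.95% at least 2. Il4 was thus rare in the first group, and less frequent in the second than over all kept cells. The Il4-expressing cells had a median of 10226 UMIs and 2511 genes, against 9149.5 UMIs and 2406 genes in Il4-zero cells, and a mitochondrial share of 3.29% against 3.28%.

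ILC2 markers were present in the cells, and not all of them were higher than in Il4-zero cells. Gata3, on which ILC2s depend, had a UMI in 95.9% of Il4-expressing cells and in 76.2% of Il4-zero cells. Its counts ran from 0 to 31 UMIs with a median of 9 in the former and from 0 to 37 with a median of 3 in the latter, so the groups overlapped. Summed, Gata3 stood at 896.6 against 561.3 CPM, a ratio of 1.60 (1.47 to 1.73). By quartile of UMIs per cell it stood at 1005, 988.3, 583.6 and 960.6 CPM in Il4-expressing cells and at 389.1, 462.5, 616.9 and 644.8 CPM in Il4-zero cells, so it was not higher in the third quartile. Rora, which ILC2s also need, stood at 1862 against 1831 CPM, a ratio of 1.02 (0.962 to 1.07). Il7r, the interleukin-7 receptor chain shared by most ILCs, stood at 544.5 against 531.7 CPM. Il1rl1, the receptor of the alarmin interleukin-33, had only 19 UMIs in the Il4-expressing cells, 24.7 against 19.2 CPM, and its interval of the ratio (0.752 to 2.08) includes 1. Other ILC2 markers had levels below those of Il4-zero cells, with 118 against 140 CPM for Il2ra, the interleukin-2 receptor alpha chain, 11.7 against 16.3 CPM for Il17rb, an interleukin-25 receptor chain, and 14.3 against 16.4 CPM for Arg1, which encodes arginase-1. The intervals of these 3 ratios include 1, so counting error covers the differences.

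Markers of other interleukin-4 sources were compared next. The basophil genes Mcpt8 and Prss34, the high-affinity IgE receptor genes Fcer1a and Ms4a2 and the eosinophil genes Siglecf and Ccr3 were at 0 UMIs in all 73 cells. Mast cell RNA was present in both groups. Cma1, a mast cell chymase gene, had a UMI in 21.9% of Il4-expressing and 19.9% of Il4-zero cells, and Kit, which ILC precursors also express, stood at 107.9 against 104.8 CPM. The mast cell list summed to 188 CPM in Il4-expressing and 238 CPM in Il4-zero cells, with 1 of 6 measured members higher, and the eosinophil list to 0 and 0.133 CPM. The basophil list held 15 of 769556 UMIs in Il4-expressing and 120 of 7500566 in Il4-zero cells. Of the T cell receptor complex, Cd3e stood at 10.4 against 9.07 CPM and Trac at 14.3 against 11.5 CPM. Cd3g and Trbc2, by contrast, were abundant in both groups, at 441.8 against 471.6 CPM and 345.7 against 416.8 CPM. The alpha beta T cell list as a whole summed to 1092 CPM in Il4-expressing and 1279 CPM in Il4-zero cells, with 3 of its 9 measured members higher, 6 lower, and Cd4 at 0 UMIs in the Il4-expressing cells. Over all 7895 genes tested, 40.8% were higher in Il4-expressing cells. Cd3g and Trbc2 RNA alone does not show a rearranged receptor.

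Il13, the neighbour of Il4 and a main ILC2 effector that drives mucus production, had the highest ratio of all genes tested (on the CPM + 10 scale used below). At least 1 Il13 UMI was present in 66 of 73 Il4-expressing cells, 90.4% (81.2 to 96.1%), and in 34.5% of Il4-zero cells (31.2 to 37.9%). Il13 ran from 0 to 26 UMIs with a median of 3 in the former and from 0 to 71 with a median of 0 in the latter. Summed, it stood at 551 against 146 CPM, a ratio of 3.77 (3.36 to 4.22). The difference was present in each quartile of UMIs per cell, from 488 against 154 CPM in the lowest to 557.3 against 132.5 CPM in the highest. With cells thinned to 5000 UMIs the shares were 74.3% and 28.6%. Read the other way, 25.2% of cells with at least 5 Il13 UMIs were Il4-expressing, against 4.94% of cells below that limit.

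The rest of the type 2 cytokine and effector list was less uniform. Of its 9 measured members, 7 were higher and 2 lower, with a median log2 ratio of 0.89 against -0.06 over all 7895 genes tested. Il5, which recruits and sustains eosinophils, stood at 209.2 against 146.8 CPM, a ratio of 1.43 (1.20 to 1.68), and was found in 32.9% against 21.8% of cells. Every Il4-expressing cell with Il5 also had Il13, since 0 of 73 had Il5 without Il13, while 9.45% of Il4-zero cells did. Only 7 of the 73 cells lacked Il13, so that count could not have been above 7. In set 2, Il5 without Il13 was found in 3 of 104 Il4-expressing cells (2.88%) and in 11.4% of Il4-zero cells. Only 19 of those 104 cells lacked Il13, so these shares are limited in the same way. Among cells of set 2 without Il13, Il5 was present in 3 and absent in 16 Il4-expressing cells. In Il4-zero cells without Il13 it was present in 350 and absent in 1488. The 3 cells with the most Il4 had 18, 12 and 9 Il13 UMIs and 0 Il5 UMIs. Areg, the gene of amphiregulin, a growth factor of tissue repair, stood at 1093 against 586.4 CPM, a ratio of 1.86 (1.73 to 2.01). Calca, which encodes the neuropeptide CGRP, had a UMI in more of the Il4-expressing cells, 72.6% against 48.8%, but its summed level was 679.6 against 734.6 CPM, and its ratio of 0.925 has an interval (0.844 to 1.01) that includes 1. Calca thus differed in how many cells held it and not in the sum.

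Other cytokines were more frequent too. Csf2, which encodes GM-CSF, stood at 131.2 against 55.9 CPM (ratio 2.35, 1.87 to 2.93), and was found in 28.8% against 14.7% of cells. Il2, the T cell growth factor, stood at 94.9 against 34.5 CPM (ratio 2.75, 2.09 to 3.57). Lif, a cytokine of the interleukin-6 family, stood at 50.7 against 15.6 CPM (ratio 3.25, 2.20 to 4.70) and was present in 27.4% against 8.83% of cells. In these 3 genes a single cell held between 20.5% and 21.8% of the UMIs of the Il4-expressing cells. Without its highest cell each fell under 2-fold, at log2 ratios of 0.80 (Csf2), 0.96 (Il2) and 0.99 (Lif). In set 2, Csf2 was found in 26.9% of Il4-expressing against 12.9% of Il4-zero cells, and Il2 in 34.6% against 18.4%. Lif was nearly equal there, at 4.81% (1.58 to 10.9%) against 4.03%. At least 3 of 10 other cytokine genes were detected together in 34 of 73 Il4-expressing cells, 46.6% (34.8 to 58.6%), and in 11.1% of Il4-zero cells (8.98 to 13.4%). Thinning lowered these shares to 25.7% and 5.32%. Il4-expressing cells were thus more often cells with several cytokine RNAs than Il4-zero cells, with and without equal depth. Cells with no Il4 and at least 2 Il13 UMIs had shares of 33.9% (26.9 to 41.5%) and, thinned, 16.8% (11.4 to 23.3%). Both intervals overlap those of the Il4-expressing cells. Il13 is 1 of the 10 genes and chose those cells. Apart from Il13, at least 1 gene was detected in 78.1% of Il4-expressing, 73.6% of those and 53.9% of Il4-zero cells.

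**Figure D2:**
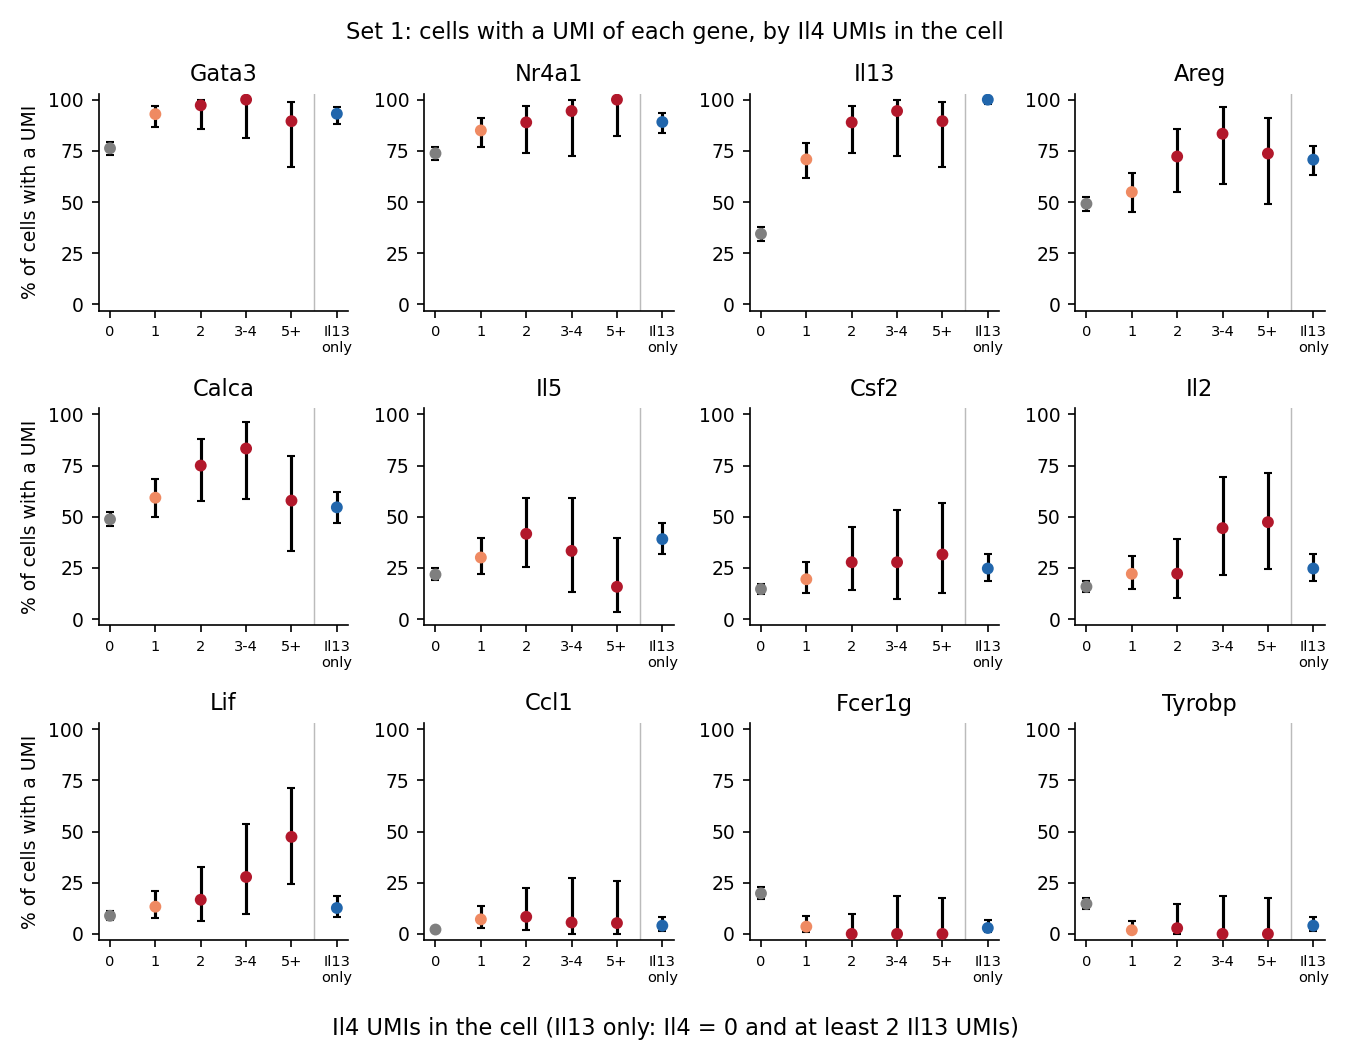
Percentage of non-cycling cells of set 1 with at least 1 UMI of each of 12 genes (points, with exact 95% binomial intervals), by the number of Il4 UMIs in the cell (grey 0, orange 1, red 2 or more) and, in blue, in 174 cells with no Il4 and at least 2 Il13 UMIs. Il13 rises from 34.5% at 0 to 70.8% at 1 and 88.9% at 2 Il4 UMIs, and Fcer1g is found in none of the red groups.

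The cells next to the limit were intermediate in some genes, such as Il13, and not in others. Calca stood at 605.7 CPM in cells with 1 Il4 UMI, below both Il4-zero (734.6 CPM) and Il4-expressing cells (679.6 CPM). Cells with exactly 1 Il4 UMI had Il13 in 70.8% and Gata3 in 92.9%, at a median of 9443 UMIs per cell. Cells with exactly 2 had Il13 in 88.9% and Gata3 in 97.2%, at a median of 12010 UMIs. Lif was found in 8.83% of cells with no Il4 UMI, in 13.3% with 1, in 16.7% with 2, in 27.8% with 3 or 4 and in 47.4% of the 19 cells with 5 or more. That order broke at 2 Il4 UMIs once cells were thinned to 5000 UMIs, where the Lif shares were 5.74%, 12.4%, 8.57%, 22.2% and 35.3%. It also broke there in set 2 without thinning, where the Lif shares were 4.03%, 7.28%, 0%, 9.09% and 11.1%. In set 1, Il5 was found in 41.7% of cells with 2 Il4 UMIs and in 15.8% of those with 5 or more.

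Over all genes, 30 of 7895 tested (0.38%) were at least 2-fold higher in Il4-expressing cells and 76 (0.963%) at least 2-fold lower. A gene was tested with 50 UMIs over both groups, and the ratio was taken of CPM + 10. At any size, 40.8% of the tested genes were higher. Among the 30 genes were cytokines (Il13, Il2, Lif, Csf2, Ccl1), TNF family members (Tnfsf9, Tnfrsf4) and genes that respond quickly to stimulation (Fos, Fosb, Nr4a1, Gadd45b, Zfp36, Ppp1r15a, Nfkbid). These groupings were made after the values were seen. The other 16 were Arid5b, Bmp2, Ccnb2, Ctla4, Fbxo33, Gm12840, Gm13889, Grp, Hspb1, Metrnl, Mt1, Pim3, Ptgir, Rgs16, Rrad and Slc25a25. Several rested on 1 cell: in 7 of the 30, a single cell held at least 38.3% of the UMIs of the Il4-expressing cells. With each gene's highest Il4-expressing cell left out, a choice made after seeing the data that can only lower the ratio, 9 of the 30 stayed past 2-fold and 29 stayed higher.

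**Figure D3:**
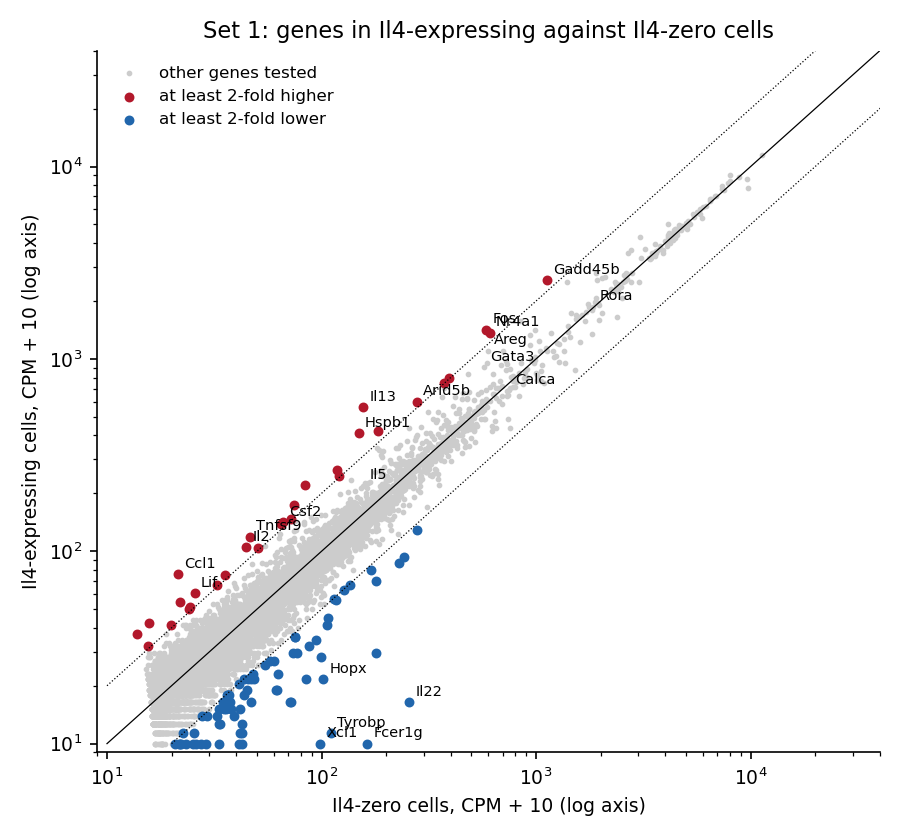
Each point is a gene of set 1, with its level in Il4-zero cells (x) and in Il4-expressing cells (y), both as CPM + 10 on log axes. Dotted lines mark 2-fold, red the 30 genes past it upward and blue the 76 downward. Il13 and Gadd45b lie above the upper line, Rora and Calca near the diagonal, and Fcer1g, Il22 and Tyrobp far below it.

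Immediate early genes, which cells transcribe within minutes of receptor signals or of handling, were higher as a group. Of 18 measured AP-1 and early-response genes, 18 were higher, 3 of them at least 2-fold, with a median log2 ratio of 0.40. Of all genes tested, 40.8% were higher and 0.38% at least 2-fold higher, with a median of -0.06. Nr4a1, an orphan nuclear receptor gene induced quickly by activating signals, had a median of 11 UMIs per Il4-expressing cell (0 to 90) and of 2 per Il4-zero cell (0 to 62). Summed, it stood at 1362 against 597.3 CPM, a ratio of 2.28 (2.13 to 2.44). Fos stood at 1410 against 576.4 CPM (ratio 2.45, 2.29 to 2.62) and Fosb at 411.9 against 173.6 CPM. Both Nr4a1 and Fos were higher in each quartile of UMIs per cell. Gadd45b, a stress-induced gene that also amplifies cytokine transcription in T helper cells, stood at 2566 against 1118 CPM (ratio 2.30, 2.19 to 2.41). Cells with at least 5 Nr4a1 UMIs were Il4-expressing in 13.9%, and cells with fewer in 2.76%.

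The NF-kB feedback genes, which NF-kB induces and which restrain it, showed the same direction in 12 of 15. Nfkbia, the IkB-alpha inhibitor, stood at 2514 against 1377 CPM, Tnfaip3, the A20 enzyme, at 827.8 against 472.4 CPM, and Nfkbid at 256 against 108 CPM. The Nr4a and Egr list was higher in 9 of 10 members, with a median of 0.43. Heat-shock chaperones were higher in 11 of 11, with a median of 0.48. Beside these 3 lists, 40.8% of all genes were higher, with a median of -0.06. Hspb1, a small heat-shock protein gene, stood at 400.2 against 139.2 CPM, but 38.3% of its UMIs in the Il4-expressing cells came from 1 cell, without which it stood at 250.1 CPM. Hspa1a was found in 50.7% against 45.9% of cells, with 1401 against 975 CPM. Dissociation of skin is known to raise early-response and heat-shock RNA, and its part in these differences was not tested.

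Among transcription factors tied to ILC2s and to Il4, 13 of 22 were higher and 9 lower, none 2-fold, with a median of 0.09. Of all genes tested, 40.8% were higher, with a median of -0.06. Apart from Gata3, Nfil3, which ILC precursors need, stood at 235.2 against 181.7 CPM (ratio 1.29, 1.10 to 1.51), and Id2, which all ILCs need, at 1175 against 929.1 CPM (ratio 1.26, 1.18 to 1.36). Maf, which acts on the Il4 promoter in T helper cells, stood at 175.4 against 189.7 CPM, and the interval of its ratio (0.769 to 1.10) includes 1. Stat6, which relays the interleukin-4 signal, stood at 39.0 against 40.1 CPM. The NFAT genes were rare, with 15.6 against 9.33 CPM for Nfatc2 and 19.5 against 25.3 CPM for Nfatc1. Runx3, a factor of type 1 and type 3 programmes that represses Il4 in T cells, was lower at 65.0 against 106.8 CPM (ratio 0.608, 0.448 to 0.810). Its log2 ratio of -0.64 ran from -0.86 to -0.085 over the alternative settings, so the size of the difference depended on the setting.

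Receptors that tell an ILC2 to respond were higher about as often as genes at large. Of 18 measured alarmin and cytokine receptors, 7 were higher and 11 lower, where 40.8% of all genes were higher. Their median was -0.25, against -0.06 over all genes. Crlf2, the receptor chain for the alarmin TSLP, stood at 36.4 against 59.9 CPM (ratio 0.608, 0.399 to 0.891). Il2rb, a chain of the interleukin-2 and interleukin-15 receptors, stood at 159.8 against 299.6 CPM (ratio 0.534, 0.441 to 0.640). Il4ra, through which the cells could sense interleukin-4 itself, stood at 71.5 against 90.9 CPM, with an interval of the ratio (0.586 to 1.04) that includes 1. Il6ra was higher at 68.9 against 40.1 CPM.

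Other genes of the Il4 neighbourhood were also compared. Of 6 measured locus genes, 6 were higher, where 40.8% of all genes were, and Il13 alone passed 2-fold. Against the Il13-only cells described below, 2 of 5 were higher, with a median of -0.01, and in set 2 4 of 6 were higher, with a median of 0.15. Rad50, which lies between Il13 and Il5 and encodes a DNA repair protein, stood at 117 against 94.1 CPM, and its ratio of 1.24 (0.986 to 1.55) does not exceed counting error. Kif3a, a kinesin gene that ends 1014 bases from the 3′ end of Il4, stood at 29.9 against 16.8 CPM, on 23 UMIs (ratio 1.78, 1.09 to 2.79). Its log2 ratio of 0.57 ran from -0.36 to 0.80 over the alternative settings, so its direction depended on the setting. Irf1, an interferon-induced factor gene beyond Il5, stood at 140.3 against 79.3 CPM.

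Several genes of type 3 and cytotoxic lymphocytes were at or near 0 in the Il4-expressing cells, and others were not. Fcer1g, an adaptor of activating receptors, had 0 UMIs in 73 cells and 1150 in Il4-zero cells, which is at least 39.3-fold lower taking 3 UMIs as the floor. Its partner Tyrobp had 1 against 752 UMIs (ratio 0.0130, 0.000328 to 0.0724). Il22, the epithelial cytokine of group 3 ILCs, had 5 against 1850 UMIs, or 6.50 against 246.6 CPM (ratio 0.0263, 0.00854 to 0.0616). The share of cells with Il22 was 2.74% (0.334 to 9.55%) against 7.09%, a value inside that interval. Xcl1, a chemokine of natural killer cells, had 0 against 663 UMIs, at least 22.7-fold lower. Only 2.49% of Il4-zero cells held Xcl1, however, and 1 of them had 302 of its UMIs. Klrk1, the gene of the activating receptor NKG2D, was still found in 30.1% of Il4-expressing cells, against 45.6%, and Tmem176a, a gene of type 3 cells, in 21.9% against 33.5%. Not every type 3 marker was lower, as some measured ones were higher in Il4-expressing cells. No count is given for the type 3 markers or for the type 1 and cytotoxic markers. Several of them, such as Il22, Cd4, Fcer1g and Xcl1, passed the limit of 50 UMIs through the Il4-zero cells alone. With cells holding at least 2 Il22 UMIs or at least 3 of Tyrobp and Fcer1g left out of both groups, a choice made after seeing the data, the genes at least 2-fold lower numbered 23, of which 17 were among the 76, and those higher 25.

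Further genes were low. Hopx, which encodes a homeodomain protein that does not bind DNA, had 9 against 691 UMIs, 11.7 against 92.1 CPM. Serpinb1a, a granzyme and neutrophil protease inhibitor gene, stood at 18.2 against 89.5 CPM, and Ctsw, a protease gene of cytotoxic cells, at 11.7 against 74.8 CPM. Pdcd1, which encodes the checkpoint receptor PD-1, stood at 31.2 against 96.3 CPM and was found in 9.59% against 26.6% of cells. Ccr2, a chemokine receptor for entry from blood, stood at 70.2 against 160.8 CPM. All 5 of these genes stayed lower over the alternative settings, but each fell under 2-fold in at least 1 of them. Their smallest log2 ratios were -0.84 (Hopx), -0.46 (Serpinb1a), -0.53 (Ctsw), -0.75 (Pdcd1) and -0.52 (Ccr2). Haemoglobin RNA (Hbb-bs) was also lower, at 19.5 against 169.1 CPM, though 17.8% and 25.9% of cells held it, and a single Il4-zero cell had 1013 of the 1268 UMIs.

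**Figure D4:**
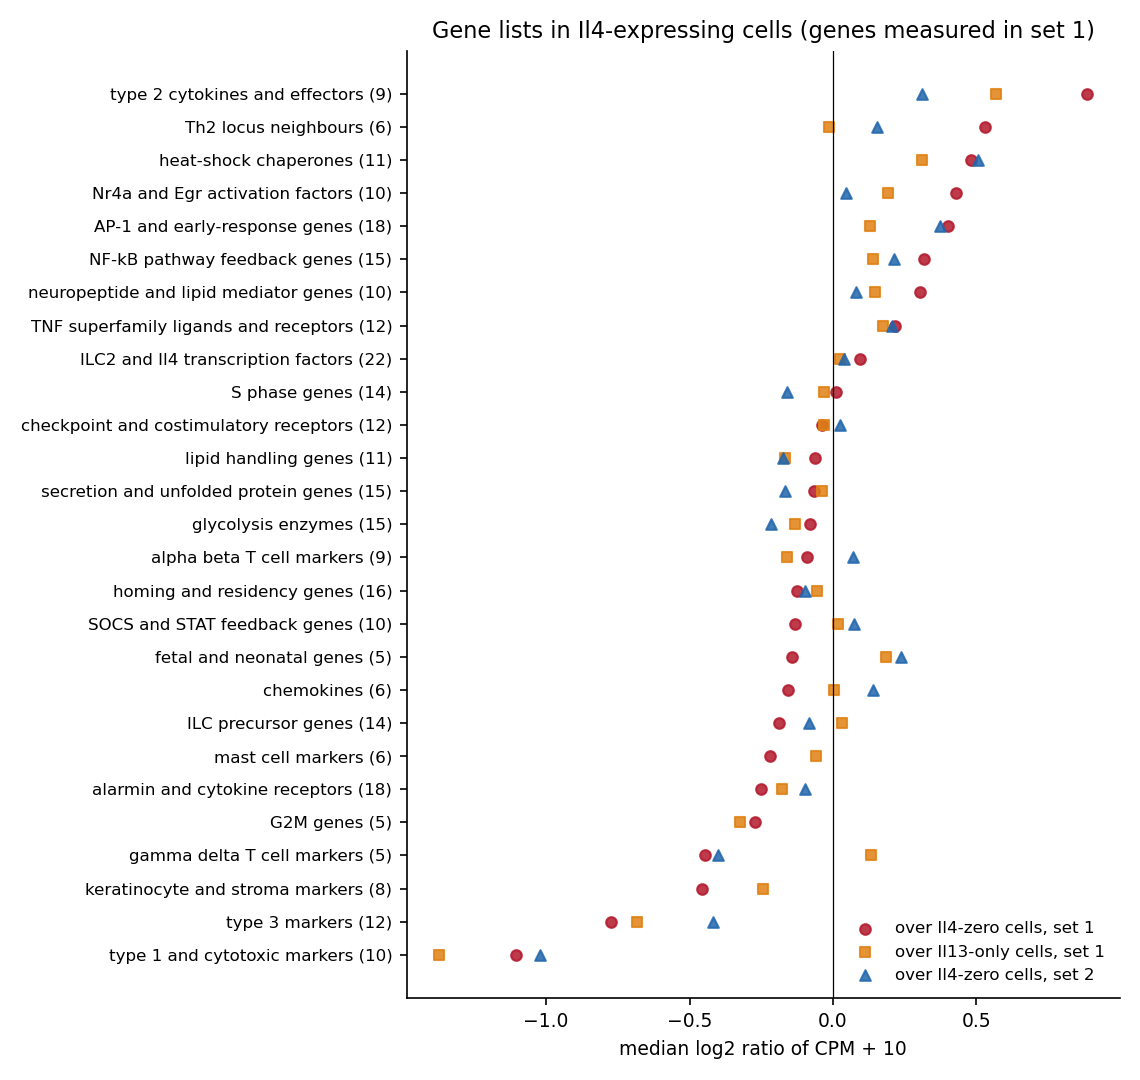
Median log2 ratio of CPM + 10 of each gene list with at least 5 measured members (number in brackets, for set 1). Red circles give Il4-expressing over Il4-zero cells of set 1, orange squares Il4-expressing over Il13-only cells of set 1, and blue triangles Il4-expressing over Il4-zero cells of set 2. In red, the type 2 list is highest at 0.89. The type 1 and type 3 lists lie lowest, and several of their members passed the limit of 50 UMIs through the Il4-zero cells alone.

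A closer neighbour was the group of 174 Il13-only cells, with 0 Il4 and at least 2 Il13 UMIs, which had a median of 10279.5 UMIs. Against them 4 of 4849 genes (0.0825%) were at least 2-fold higher in Il4-expressing cells, namely Ccl1, Hspb1, Lif and Rgs16, and 24 (0.495%) were lower. Against Il4-zero cells with a Gata3 UMI, 613 cells, the counts were 23 (0.31%) and 40 (0.54%). Lif stood at 50.7 CPM against 15.9 in Il13-only cells, and Tnfsf9 at 109.2 against 52.8. Nr4a1 stood between the groups, with 1048 CPM in Il13-only cells, 1362 in Il4-expressing and 597.3 in Il4-zero cells, and so did Areg with 909.4 CPM and Gata3 with 765.3 CPM. Il5 had the other order, with 347.5 CPM in Il13-only and 209.2 in Il4-expressing cells, a log2 ratio of -0.71. Il13 itself is no comparison here, since it chose the Il13-only cells. Against Il13-only cells, which are themselves part of the Il4-zero cells, 45.4% of all genes were higher. The AP-1 list had 11 of 18 members higher (median 0.13), the heat-shock list 11 of 11 (median 0.31) and the NF-kB list 10 of 14 (median 0.14).

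Ccl1, the ligand of the chemokine receptor Ccr8, showed how far single cells can set a value. It stood at 66.3 CPM in Il4-expressing, 11.3 in Il4-zero and 4.40 in Il13-only cells, but only 5 of 73 Il4-expressing cells had any, and 1 of them held 34 of the 51 UMIs. Without that cell it stood at 22.5 CPM and was no longer 2-fold higher. Ctla4 likewise had 18 of 21 UMIs in 1 cell. Hspb1, Rrad and Rgs16 also fell under 2-fold without their highest cell.

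Set 2 offers the same comparison in cells that the rule did not use. There, 104 Il4-expressing cells were set against 3076 Il4-zero cells, and 25 of 8995 genes (0.278%) were at least 2-fold higher and 52 (0.578%) lower. Genes higher in both sets numbered 4: Il13, Ccl1, Arid5b and Tnfrsf4, which is 13.3% of the 30 genes of set 1 and 16% of the 25 of set 2. Il13 stood at 984.7 against 321.7 CPM in set 2 and was found in 81.7% of Il4-expressing and 40.2% of Il4-zero cells. Ccl1 stood at 65.9 against 27.0 CPM in set 2, but only 10 of 104 Il4-expressing cells there had any. A single one of these cells held 23 of the 37 UMIs, so Ccl1 leaned on 1 cell in each set. Arid5b, a chromatin cofactor gene, stood at 590 against 267.7 CPM in set 1 and at 240.4 against 111 CPM in set 2. Tnfrsf4, which encodes the costimulatory receptor OX40, stood at 57.2 against 22.5 CPM in set 1 and at 256.4 against 110.5 CPM in set 2.

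Gene lists were also compared in set 2, where 47.9% of all genes were higher at any size. There, 5 of 8 type 2 cytokines, 15 of 17 AP-1 genes and 10 of 11 heat-shock genes were higher, with medians of 0.31, 0.37 and 0.50. The Nr4a and Egr list had 7 of 11 members higher, with a median of 0.05, against 0.43 in set 1. The difference between the sets was not tested.

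Of the 30 genes of set 1, 28 were measured in set 2 as well, and 23 of these were higher there, with a median log2 ratio of 0.50 against -0.01 over all genes. Nr4a1 stood at 1368 against 725.8 CPM and Gata3 at 842.2 against 590 CPM in set 2. Fos was nearly equal there, at 788.8 against 692.5 CPM, and Il5 stood at 236.8 against 246.9 CPM. Hspb1 had the other direction in set 2, with 23.2 against 52.3 CPM. Of the 76 lower genes, 13 were also at least 2-fold lower in set 2, among them Fcer1g, Xcl1, Ccr2, Dgat1 and Hbb-bs. Hopx stood at 555.5 against 514.9 CPM there, Ctsw at 268.9 against 291.7 CPM and Serpinb1a at 190.5 against 192.9 CPM.

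**Figure D5:**
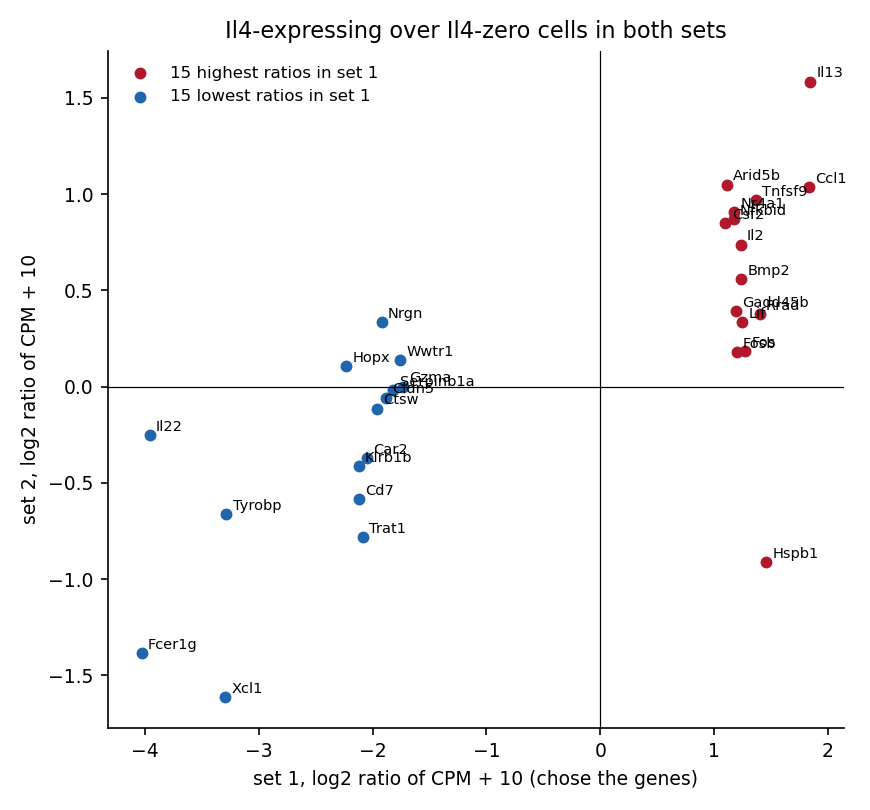
Log2 ratio of CPM + 10, Il4-expressing over Il4-zero cells, in set 1 (x, where the genes were chosen) and set 2 (y), for the 15 highest (red) and 15 lowest (blue) named genes of set 1. Il13, Ccl1 and Arid5b lie high in both sets, Hspb1 lies below 0 in set 2, and Hopx, low in set 1, lies near 0 in set 2. For Ccl1, 1 cell held 23 of the 37 UMIs of the Il4-expressing cells of set 2.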

How the data were processed

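The deposited table holds raw UMI counts per gene and cell, per the file's values, as whole numbers that had not been scaled. Cell Ranger 3.1.0, Seurat 4.1.0 and the mm10 build are named in the submitters' processing notes, with no settings known here. Cells were chosen by the limits given above, UMIs were summed over a group, and CPM, ratios (CPM + 10, 50 UMIs) and intervals (exact binomial, Poisson) were computed with Python 3.11.15, numpy 2.4.6 and scipy 1.17.1. The intervals take UMIs as independent, so they are too narrow where 1 cell holds many. The total was 769556 UMIs in Il4-expressing and 7500566 in Il4-zero cells. No doublet caller was run. Cells above 2 times the median UMIs of their set were left out as an alternative. None of them in set 1 was Il4-expressing, while in set 2 at least 1 was. The sets shared 4 cell barcodes, none of them of an Il4-expressing cell.

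Genes were named by a rule: the 15 highest and 15 lowest ratios with at least 100 UMIs, 5 of each against Il13-only cells, every measured member of the lists for type 2 cytokines, locus neighbours, transcription factors and receptors, and up to 4 of each other list, of 32 lists in all, leaving out antigen receptor, haemoglobin, ribosomal and unnamed genes from the ratio ranks. Grouped gene names outside it were chosen after their values were seen. The cells, rule and lists were chosen with earlier results of these data known. Ratios and intervals were checked on simulated data. Coordinates came from GENCODE and sequences from RefSeq, both matched by symbol. Alternatives covered the Il4 limit, depth, cycling cells, pseudocount, filter, weighting and edgeR 4.0.16 TMM factors.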

Additional observations from a re-analysis of the deposited data

Results flagged for a closer look

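Hspb1 was at least 2-fold higher in Il4-expressing cells of set 1, with a log2 ratio of 1.46, and lower in those of set 2, with a log2 ratio of -0.91 and an interval of the ratio from 0.235 to 0.761. It is listed because the 2 sets moved in opposite directions. The difference between the sets was not tested, and in set 1 38.3% of the Hspb1 UMIs of the Il4-expressing cells lay in 1 cell.

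Cycling cells, which the comparisons above leave out, also held Il4. At least 2 Il4 UMIs were found in 56 of 451 cycling cells of set 1, 12.4% (9.52 to 15.8%). The 451 cells had a median of 15545 UMIs and the 56 a median of 16585. Thinned to 5000 UMIs the share was 5.64% (3.69 to 8.22%). Il13 was present in 89.3% of the 56 and in 47.0% of the 345 cycling cells with no Il4 UMI, and Nr4a1 stood at 1626 against 585 CPM. In set 2, 2 of 177 cycling cells (1.13%) passed the limit.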

How the results depend on the processing

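Values are from cells of 1 pooled sample. No paired analysis was possible because the labels number no replicates and the cells could not be matched to a day. The share of Il4-expressing cells, 7.37%, became 3.74% at 3 Il4 UMIs, 18.8% at 1 UMI and 4.16% when the rule was applied after thinning, and the share of them with Il13, 90.4%, became 78.5% at 1 UMI and 74.3% after thinning. The 30 genes higher became 92 at 3 Il4 UMIs, 5 at 1, 72 with the rule after thinning, 85 with CPM + 1, 8 with CPM + 50, 166 at 1.5-fold, and 9 without each gene's highest cell. The 76 genes lower became 243, 48, 458, 446, 10 and 445 under the first 6 of these settings, and 121 with no cycling UMI, 36 with no cycling limit, 164 after thinning, 151 in the middle of the members' UMI range, 42 among cells with a Gata3 UMI and 23 without type 3 cells. The 4 genes higher in both sets became 15 (3 Il4 UMIs), 1 (1 UMI), 7 (thinned), 13 (CPM + 1), 1 (CPM + 50), 2 (TMM), 34 (1.5-fold), 2 (without type 3 cells) and 1 (without each gene's highest cell). The causes were not tested. Under these settings between 27 and 30 of the 30 genes stayed higher and between 70 and 76 of the 76 stayed lower. Leaving out type 3 cells, each gene's highest Il4-expressing cell or the 3 cells with at least 50 Il4 UMIs was chosen after seeing the data, and without those 3 cells 26 genes were higher.

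Among 169 named genes, 10 alternative values of genes past 2-fold changed sign. Ccl1 (-0.17) and Ctla4 (-0.30) did so in the middle of the members' UMI range, Ctla4 (-0.56) and Cma1 (0.10) with no cycling UMI, and Ccnb2 (-0.28) at 3 Il4 UMIs. Cma1 also did so among cells with a Gata3 UMI (0.073), without type 3 cells (0.045) and without the cell of either group with most of its UMIs (0.030), as did H2-Ab1 (0.063) and Cd160 (0.13) without type 3 cells.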

Other observations

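Neuropeptide and lipid mediator genes were not described above. Of 10 measured in set 1, 6 were higher and 4 lower, with 1 at least 2-fold in each direction (Ptgir and Ramp1), and none was past 2-fold in set 2. Of all genes tested in set 1, 40.8% were higher, 0.38% at least 2-fold higher and 0.963% at least 2-fold lower. Ptgir, the prostacyclin receptor gene, stood at 65.0 against 25.5 CPM (ratio 2.55, 1.83 to 3.50) and was found in 46.6% against 17.3% of cells, with 74.8 against 34.9 CPM in set 2. Ptgs2, which encodes the cyclooxygenase COX-2, did not pass 2-fold and stood at 335.3 against 171.6 CPM, and at 37.4 against 18.4 CPM in set 2. Ptger4, a prostaglandin E2 receptor gene, stood at 94.9 against 59.7 CPM. Ramp1, which encodes part of the CGRP receptor, was lower in set 1, at 5.20 against 31.9 CPM, and nearly equal in set 2, at 195.9 against 202.3 CPM.

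Of the 73 Il4-expressing cells, 28 held Xist and no Y-linked UMI, 33 held Y-linked UMIs and no Xist, 12 held neither and 0 held both, while 21 of 804 Il4-zero cells held both. Glycolysis enzymes were near the background, with a median log2 ratio of -0.08 over 15 measured members against -0.06 over all genes.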
